A study of Mus musculus with 35 samples.

Results

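The RNA held by an m6A antibody was compared with the input RNA of the same animal in the hippocampus of epileptic mice, 2 weeks after intra-amygdala kainic acid (IA-KA). The comparison takes 12 of the 35 libraries of the series, 1 m6A library and 1 input library from each of 6 mice (numbers 42, 21, 5, 7, 9 and 6), chosen by treatment, time point and mouse number and paired by mouse. The animals were C57BL/6JOlaHsd males of 7 to 9 weeks. They received kainic acid, a glutamate receptor agonist, through a cannula into the amygdala, went into status epilepticus and were then given lorazepam, a benzodiazepine. The groups set beside them were 3 mice injected with PBS in place of kainic acid and sampled at 2 weeks (2, 3 and 4), and 3 IA-KA mice sampled at 24 hours (67, 98 and 8). The column names of the data give the assay for the inputs of mice 7, 9 and 6. The m6A columns carry a numeric prefix, and the columns without a prefix were read as the inputs of mice 42, 21 and 5.

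N6-methyladenosine (m6A) is a methyl mark on adenosines inside RNA. It is placed by writer proteins around METTL3 and METTL14, removed by the erasers FTO and ALKBH5, and bound by readers such as the YTH domain proteins, and it is known to affect splicing, decay and translation of neuronal mRNA. An antibody pulldown enriches RNA fragments that carry the mark, so a gene whose share of reads is higher in the m6A library than in the input is called enriched, and the opposite is called depleted. By the sample labels, the pulldown libraries were made from poly(A) RNA and the inputs from total RNA, so enrichment by the antibody and selection for a poly(A) tail cannot be told apart in any ratio given here. The same holds for the amount of RNA per library, which also differed between the assays.

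Among the genes most depleted in the m6A libraries, many contain a small structural RNA gene in an exon. Such RNAs are transcribed or processed on their own and, as general background, carry no poly(A) tail. The sequences below are those of 6 such genes, printed because they include those of the 4 most depleted hosts and, in Rpl32 and Eif4a2, examples of small nucleolar RNA genes. They are transcripts of GENCODE release M39 on the GRCm39 assembly, and all lie on the same strand as the host gene and overlap at least 1 of its annotated exons. The 5S ribosomal RNA gene n-R5s185 (chr4:53860652-53860770, plus strand) lies in Tmem38b. The spliceosomal genes Gm26325 (chr7:12664701-12664807, plus strand) and Gm23410 (chr10:24769878-24769984, plus strand) lie in Rnf225 and Med23 and are 86.0% identical, and their capitals mark the longest run of bases that they share, 24 bases long. In Gm25818 (chr6:53410959-53411122, plus strand), a spliceosomal RNA gene in 9430076C15Rik, the capitals mark bases 3 to 11, the stretch with which U1 RNA pairs with 5′ splice sites. In Snora7a (chr6:115784936-115785075, minus strand), in Rpl32, they mark the last ACA, 3 bases before the end. In Snord2 (chr16:22927703-22927771, plus strand), in Eif4a2, they mark the first ATGATG and the last CTGA, the letters of the C and D boxes of this class of small nucleolar RNA.
n-R5s185: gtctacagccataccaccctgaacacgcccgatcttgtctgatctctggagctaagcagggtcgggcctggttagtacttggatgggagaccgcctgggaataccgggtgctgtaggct
Gm26325: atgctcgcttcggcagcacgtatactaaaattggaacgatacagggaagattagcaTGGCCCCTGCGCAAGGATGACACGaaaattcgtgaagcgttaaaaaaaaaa
Gm23410: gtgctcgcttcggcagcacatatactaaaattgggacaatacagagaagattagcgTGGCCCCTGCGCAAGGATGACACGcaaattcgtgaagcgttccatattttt
Gm25818: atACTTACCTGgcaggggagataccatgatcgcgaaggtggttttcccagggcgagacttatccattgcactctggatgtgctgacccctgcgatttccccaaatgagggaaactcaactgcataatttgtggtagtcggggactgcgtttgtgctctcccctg
Snora7a: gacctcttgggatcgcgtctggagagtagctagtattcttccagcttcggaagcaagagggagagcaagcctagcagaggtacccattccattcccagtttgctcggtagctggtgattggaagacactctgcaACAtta
Snord2: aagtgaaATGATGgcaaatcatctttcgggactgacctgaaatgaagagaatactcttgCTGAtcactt

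The 6 inputs held 3057578 to 8017282 counts (median 5958005) and the 6 m6A libraries 15291875 to 34564536 (median 17260047). A gene with no count in an input may therefore still stand at up to 0.374 to 0.981 CPM (counts scaled to a common library total), the level of 3 counts, which covers counting error only. Mouse 6 stood apart, since its m6A library detected 27003 genes. Markers of neurons, astrocytes, microglia and oligodendrocytes were all detected in all 12 libraries. Choroid plexus markers were present too and summed to 244 to 1683 CPM in the inputs. The log2 ratios of m6A to input correlated across genes with a median Pearson r of 0.30 over the 15 pairs of mice, from -0.04 between mice 42 and 6 to 0.66 between mice 7 and 9. Genes share libraries and are not replicates, so these values describe only how alike the mice were.

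Of 15413 genes tested, 855 were higher and 484 lower in the m6A libraries than in the inputs at an adjusted P under 0.05 (edgeR's quasi-likelihood test with the mouse as a block, n = 6 pairs). The 1339 calls are 8.69% of all genes tested, 5.55% higher and 3.14% lower, and these shares are the background for every gene list that follows. The log2 fold changes were centred at a median of -0.03, with quartiles of -0.28 and 0.24, because the scaling assumes that most genes do not differ. Among called genes the median was 0.80 for the higher and -0.67 for the lower ones, and 273 higher and 84 lower genes changed by more than 1 on the log2 scale. The ratio had the same sign in all 6 mice for 710 of the 855 higher and 414 of the 484 lower genes, against 17.0% of all genes tested. A shared sign is favoured by the call itself, which was made on these same mice, and is no separate support. The number of calls rests on single animals: it was 151 without mouse 5, 146 without mouse 7, 117 without mouse 9 and 2145 without mouse 6. Scaling by library size alone gave 2392 higher and 148 lower genes, 94.2% of calls higher in place of 63.9%, because it moved the median of all genes from -0.03 to 0.16.

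**Figure D1:**
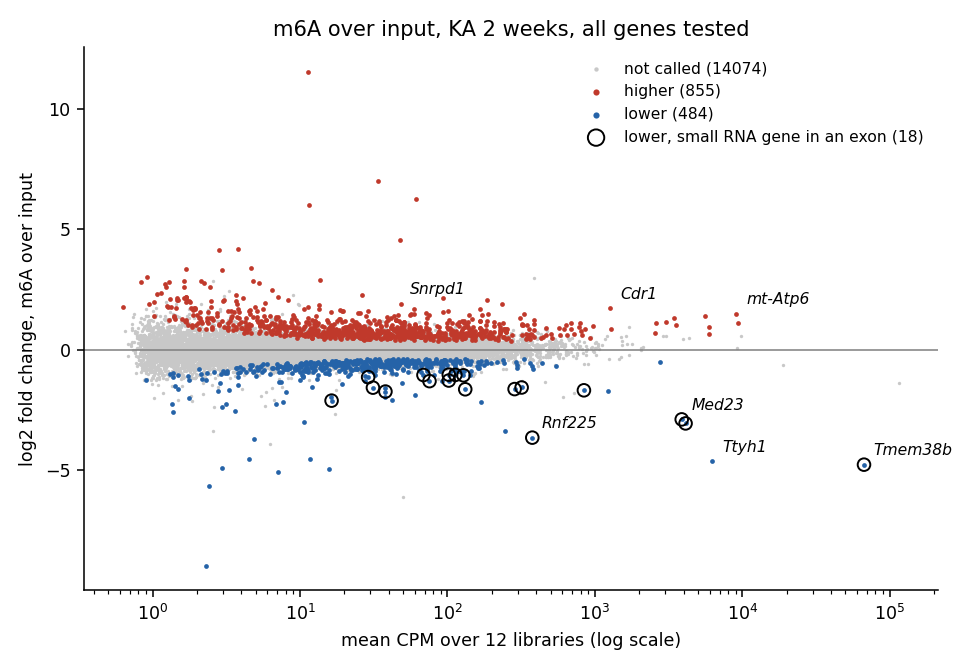
Each point is 1 of the 15413 genes tested, with its mean CPM over the 12 libraries on a log axis and its log2 fold change of m6A over input; red and blue points passed an adjusted P of 0.05. The abundant depleted genes Tmem38b, Ttyh1 and Med23 lie far below the other genes of their level, and the 18 circled genes are depleted genes with a small structural RNA gene in an exon.

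The strongest depletion among abundant genes was that of Tmem38b, which encodes an intracellular cation channel (GRCm38 chr4:53825988-53862019, the host of the 5S sequence above). It stood at 27008, 125822 and 205554 CPM (lowest, median and highest) in the inputs and at 1137, 5670 and 23900 CPM in the m6A libraries, where CPM is relative to the TMM-scaled library total. On this scale the assays did not overlap, although in mouse 21 the m6A library was only slightly lower than the input (log2 ratio -0.18, against -3.78 to -7.50 in the other 5 mice). Its fitted log2 fold change was -4.77 (SE 0.91, adjusted P = 0.018). Tmem38b alone took 2.55% to 19.2% of all counts of an input and 0.135% to 2.61% of an m6A library. These unscaled shares overlapped, because mouse 21 had 2.55% in its input and 2.61% in its m6A library. The sign of the mouse 21 ratio thus depends on the scaling.

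Ttyh1, a membrane protein of the tweety family (GRCm38 chr7:4119530-4135407), was nearly as depleted, with 2500, 11616 and 18668 CPM in the inputs and 200, 451 and 1230 CPM in the m6A libraries. All 6 inputs lay above all 6 m6A libraries (log2 fold change -4.63, SE 0.65, adjusted P = 0.0063). Again mouse 21 had the smallest difference, with a log2 ratio of -1.02. No small structural RNA gene is annotated in an exon of Ttyh1.

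Rnf225, a RING finger gene (GRCm38 chr7:12927416-12931072), fell from 441, 612 and 1093 CPM in the inputs to 9.27, 63.8 and 234 CPM in the m6A libraries, without overlap (log2 fold change -3.65, SE 0.55, adjusted P = 0.0086). Med23 encodes a subunit of the Mediator complex of transcription, and its values were 3219, 6285 and 11551 CPM in the inputs and 160, 834 and 3406 CPM in the m6A libraries. The Med23 groups overlapped because the m6A library of mouse 6 lay above the inputs of mice 7 and 21, yet the ratio was below 0 in all 6 mice (-2.89, SE 0.64, adjusted P = 0.027). Both genes hold a spliceosomal RNA sequence printed above, with the same 24-base run. 9430076C15Rik, the host of the U1-like sequence, was chosen after its values were seen as a gene outside the naming rule for the largest changes. It stood at 2717, 7869 and 10988 CPM in the inputs and 320, 815 and 3526 CPM in the m6A libraries, with mouse 21 above 0 (log2 fold change -3.06, adjusted P = 0.026).

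Eif4a2, an RNA helicase of translation initiation, hosts Snord2 and 4 further small nucleolar RNA genes in its exons. It measured 980, 1247 and 1693 CPM in the inputs and 179, 410 and 647 CPM in the m6A libraries, with no overlap (log2 fold change -1.69, SE 0.20, adjusted P = 0.0035). Its paralog Eif4a1, with 3 such genes, had a log2 fold change of -1.63 (adjusted P = 0.017), and its groups overlapped because mouse 21 was above 0 at 0.22. Rpl32, the host of Snora7a, went from 291, 439 and 632 CPM to 73.7, 157 and 245 CPM, again without overlap (-1.57, SE 0.19, adjusted P = 0.0043). Eif4a1 and Rpl32 were named after their values were seen. Introns of genes for translation factors and ribosomal proteins are known to carry many small nucleolar RNA genes, and annotated transcripts that retain such an intron count here as exons.

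Of the 47 genes called lower with a log2 fold change under -1 and a mean of at least 10 CPM, 18 (38.3%) had a small structural RNA gene in an annotated exon. The share was 1.52% (5 of 330) among the lower genes with a smaller change, 3.33% (4 of 120) among the genes higher by more than 1, and 1.69% (154 of 9089) among all genes at that level that matched the annotation. This pattern was noticed in these data and is a description without a test. Of the 154 genes with a small RNA gene in an exon, 119 were not called, 23 were lower and 12 were higher. Among all 9089 genes at that level 377 were lower and 609 higher. Besides those named, the 18 hosts were Dnah14, Ncapd2, Ccz1, Trim14, 2410002F23Rik, Rpl30, Sp100, Rpl10, Ddx39b, Rplp2 and Rps2. The small RNA gene lay on the strand of the host in 15 of the 18 and on the opposite strand in 3 (Dnah14, Ccz1 and Trim14). The 18 were selected as lower in these same 6 mice, so their sign with 1 mouse left out is no separate support. All 18 kept a log2 fold change below 0 whichever mouse was left out, with a median from -1.43 to -1.76. Only 9, 7 and 6 of them passed the test without mouse 5, 7 and 9. The share of hosts among the strongly lower genes was then 21.5% to 56.2%, the lowest without mouse 6. Over all genes that hold small RNA genes of one class anywhere in their span, in introns as well, the median was near that of all genes, -0.03 for both spliceosomal and small nucleolar RNAs. Annotated small nucleolar, spliceosomal and micro-RNA genes themselves were not analysed here, and whether their reads were counted to the host genes was not tested.

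The rule for named genes also gave strongly depleted genes with no small RNA gene in an exon. Napsa, an aspartic protease, went from 205, 418 and 752 CPM to 5.31, 43.8 and 179 CPM (log2 fold change -3.37, adjusted P = 0.018). Lipe, hormone-sensitive lipase, went from 49.6, 55.2 and 125 CPM to 9.64, 12.6 and 29.5 CPM (-2.09, adjusted P = 0.0071). In both genes all inputs lay above all m6A libraries. Grip2, a scaffold that binds AMPA-type glutamate receptors (GRCm38 chr6:91761452-91843954), had 1321, 1692 and 3066 CPM in the inputs and 433, 500 and 869 CPM in the m6A libraries. Its ratios ran from -0.89 to -2.31 without overlap of the groups (log2 fold change -1.73, SE 0.19, adjusted P = 0.0028). The other named hosts were Dnah14, an axonemal dynein heavy chain (-2.11), Ncapd2, a condensin subunit (-1.74), Ccz1, part of a Rab7 activator (-1.64), and Trim14 (-1.57). Lars2, the mitochondrial leucyl-tRNA synthetase, took 2.35% to 25.2% of input counts and 0.631% to 17.4% of m6A counts. Its ratio was below 0 in all 6 mice and -4.41 in mouse 6, but it did not pass the test (-1.38, SE 0.46, adjusted P = 0.083).

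**Figure D2:**
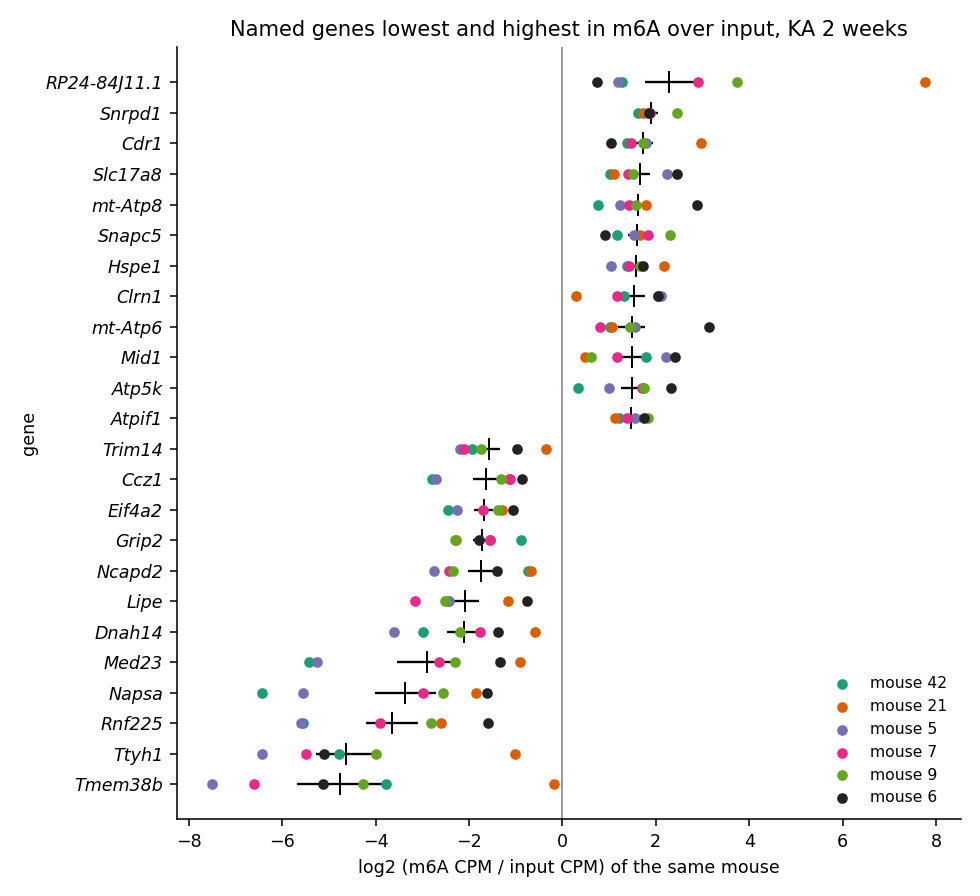
The 12 named genes highest and the 12 lowest in m6A over input are plotted by the log2 ratio of each mouse (coloured points), with the fitted log2 fold change and its SE as a black mark and line. All points of a gene lie on 1 side of 0, which the rule for naming required, and mouse 21 lies nearest to 0 for Tmem38b, Ttyh1 and Med23.

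On the enriched side Snrpd1, which encodes a core Sm protein of spliceosomal particles, was higher in every mouse. It stood at 14.9, 19.5 and 24.8 CPM in the inputs and 45.7, 76.0 and 108 CPM in the m6A libraries. The groups did not overlap, and the ratios ran from 1.61 to 1.87 in 5 mice and reached 2.46 in mouse 9 (log2 fold change 1.91, SE 0.13, adjusted P = 3.5e-04). Atpif1, an inhibitor of the mitochondrial ATP synthase (GRCm38 chr4:132530555-132535450), rose from 116, 173 and 242 CPM to 270, 544 and 648 CPM with ratios from 1.12 to 1.84 (1.48, SE 0.13, adjusted P = 6.8e-04). Hspe1, the mitochondrial chaperonin HSP10, rose from 28.0, 50.1 and 62.9 CPM to 89.1, 137 and 180 CPM (1.57, SE 0.15, adjusted P = 0.0011). These genes were higher in the m6A library of each of the 6 mice, which the rule for naming required.

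Cdr1, a gene expressed in neurons (GRCm38 chrX:61183246-61185558), measured 73.3, 851 and 946 CPM in the inputs and 567.97, 2087 and 3272 CPM in the m6A libraries. The groups overlapped, since mice 42 and 21 were low in both assays, but the ratio within each mouse ran from 1.03 to 2.97 (log2 fold change 1.72, SE 0.23, adjusted P = 0.0049). A transcript from its opposite strand is known, and without the strand setting of the counting the reads of the strands cannot be told apart. Slc17a8, a vesicular glutamate transporter (GRCm38 chr10:89574020-89621249), was low in the inputs (4.89, 5.67 and 8.23 CPM) and higher in every m6A library (10.7, 15.9 and 45.9 CPM, log2 fold change 1.67, adjusted P = 0.0048). Snapc5, a subunit of the complex that activates small nuclear RNA genes, rose without overlap from 7.51, 9.27 and 12.2 CPM to 18.1, 29.9 and 43.5 CPM (1.598, adjusted P = 0.0035). The remaining named genes were Clrn1 (1.54), the ATP synthase subunit Atp5k (1.48), the ubiquitin ligase Mid1 (1.48), mt-Atp8 (1.62), mt-Atp6 (1.48) and RP24-84J11.1 (2.29), whose input value was 0 in 1 mouse and whose ratio there reached 7.77.

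The 13 genes encoded by mitochondrial DNA had the largest median of the 38 gene lists, with 9 higher, none lower and a median log2 fold change of 1.09 against -0.03 over all genes. These transcripts code for subunits of the respiratory chain and the ATP synthase, and most of them, though not all, are known to carry short poly(A) tails. Their median ratio was above 0 in each mouse and ran from 0.45 in mouse 42 to 1.94 in mouse 6. mt-Nd5, a complex I subunit, measured 2516, 5807 and 9217 CPM in the inputs and 3805, 13313 and 26159 CPM in the m6A libraries (1.10, SE 0.19, adjusted P = 0.012). Its groups overlapped while all 6 ratios lay between 0.60 and 1.83. mt-Atp6 had a log2 fold change of 1.48 (adjusted P = 0.018) and reached a ratio of 3.15 in mouse 6. mt-Co1, a complex IV subunit, did not pass the test (0.56, adjusted P = 0.12), nor did mt-Co3, mt-Nd1 and mt-Nd3. Of the 13 genes 12 had a log2 fold change above 0 and 1 below, at -0.31. Without mouse 6 the list still held 9 higher genes at a median of 0.95. Without mouse 5, 7 or 9 it held 3, 4 and 3, at medians from 1.05 to 1.14. The median GC content of these genes was 37.1%, and with GC content corrected for, 9 were higher at a median of 0.75. Nuclear genes hold near-identical copies of mitochondrial sequence, so reads of these genes may have been split between copies.

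Nuclear-encoded subunits of oxidative phosphorylation showed no such shift as a class, since 10 of 81 were higher and 2 lower at a median of 0.07. The enriched members included the ATP synthase subunits Atp5h (1.03, adjusted P = 0.0016), Atp5j (0.95) and Atp5k, the complex IV subunit Cox7b (1.27) and the complex III subunit Uqcrb (1.19). Cyc1 of complex III (-0.79) was among the lower members. The 81 cytosolic ribosomal proteins moved both ways, with 11 higher and 12 lower at a median of -0.05, whose sign turned with library-size scaling. Rps23 (1.42) and Rpl23a (1.08) led the higher members, and Rpl32 (-1.57) and Rpl27 (-1.57) the lower ones. A small RNA gene lay in an exon of 5 of the 12 lower, 3 of the 11 higher and 18 of the 58 uncalled members. Both classes called more members than the 8.69% of all genes, but the ribosomal list dropped to 3 higher and 1 lower without mouse 5 and to 2 higher and 1 lower without mouse 7 or mouse 9, and the oxidative phosphorylation list to 4, 4 and 2 higher and none lower without mouse 5, 7 and 9. Without mouse 21 the ribosomal list had 8 higher and 21 lower members. Ribosomal protein genes share sequence with many processed pseudogenes, of which 27 were tested and 6 were higher and 3 lower.

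Of the proteins that place, remove and read m6A, the mRNAs of both erasers were depleted in the pulldown and those of 3 readers were enriched. Alkbh5 (GRCm38 chr11:60537683-60558512) measured 55.2, 74.3 and 84.4 CPM in the inputs and 40.7, 49.5 and 56.8 CPM in the m6A libraries. Its groups overlapped slightly, and the ratio was below 0 in all 6 mice (log2 fold change -0.58, SE 0.13, adjusted P = 0.026). Fto measured 68.6, 88.1 and 103 CPM in the inputs and 48.8, 62.5 and 84.0 CPM in the m6A libraries, also with all 6 ratios below 0 (-0.44, SE 0.11, adjusted P = 0.037). Neither eraser passed the test when mouse 5, 7 or 9 was left out, or with library-size scaling.

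Ythdc1, the nuclear YTH reader, rose from 176, 198 and 264 CPM to 278, 461 and 579 CPM. All m6A libraries lay above all inputs, although mouse 21 had a ratio of only 0.07 (log2 fold change 1.01, SE 0.19, adjusted P = 0.017). Fmr1, the fragile X protein, which binds m6A-containing mRNA, rose without overlap from 90.0, 97.8 and 118 CPM to 123, 156 and 199 CPM (0.67, SE 0.13, adjusted P = 0.019). Hnrnpa2b1, a nuclear RNA-binding protein, had a log2 fold change of 0.59 (adjusted P = 0.034) with all 6 ratios above 0. Igf2bp3, a cytoplasmic reader that stabilizes mRNA, went the other way (-1.01, adjusted P = 0.019), from 18.4, 25.1 and 50.6 CPM to 7.28, 13.6 and 25.7 CPM. With 3 of 13 higher, 1 lower and a median of 0.12, the readers had 4 calls, and none of them held without mouse 5, 7 or 9. The cytoplasmic YTH readers Ythdf1 (0.06), Ythdf2 (0.42) and Ythdf3 (0.40) did not pass. No writer of 11 tested passed, at a median of 0.17: the catalytic subunit Mettl3 had 0.30 (adjusted P = 0.19), its partner Mettl14 0.34 (adjusted P = 0.095) and Zc3h13, a subunit of the regulatory complex, 0.69 (adjusted P = 0.066). With library-size scaling 4 writers were higher. The 10 tested transcripts that the study followed by m6A immunoprecipitation and PCR had no call and a median of 0.14. The study picked that list from m6A arrays. Its PCR addressed differential methylation in acute and chronic mice, a different contrast from pulldown over input within IA-KA mice.

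The numbered Zfp genes, most of which encode DNA-binding zinc finger proteins, moved in 1 direction. Of 346 tested, 49 (14.2%) were higher and none lower, against 5.55% and 3.14% of all genes, and 259 had a log2 fold change above 0 (median 0.22). The list median was above 0 in each of the 6 mice, from 0.11 to 0.55. Examples are Zfp758 (1.25, adjusted P = 0.013), Zfp330 (1.03, adjusted P = 0.0057) and the more abundant Zfp292 (0.71, adjusted P = 0.030). The median GC content of their transcripts was 44.8%, below the 49.8% of all genes. With GC content corrected for, 52 were higher and 2 lower, and the median was 0.17. Only 2 to 4 of them passed without mouse 5, 7 or 9.

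Heat shock proteins and chaperonins had 9 of 31 genes higher and 1 lower at a median of 0.22. Hsp90aa1, the inducible cytosolic HSP90, rose from 1756, 2126 and 3123 CPM to 2657, 5287 and 6250 CPM, with an overlap between the groups and a ratio above 0 in all 6 mice (1.03, SE 0.21, adjusted P = 0.022). Hsp90ab1 (0.68), Hsp90b1 (0.60), the mitochondrial Hspa9 (0.53) and the co-chaperone Dnaja1 (0.84) were higher as well. Hspa8, the abundant constitutive HSP70, had -0.23 and did not pass, and Dnajc5, the cysteine string protein of synaptic vesicles, was lower (-0.53). Without mouse 5, 7 or 9 only 1, 1 and 2 members of the list were higher. Among 37 proteasome subunits, 3 were higher (Psmd7 1.19, Psma4 0.85, Psmd4 0.81) and 1 lower (Psmc5, -0.38). None of 17 glycolytic enzymes passed, although 16 had a log2 fold change below 0 (median -0.30).

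**Figure D3:**
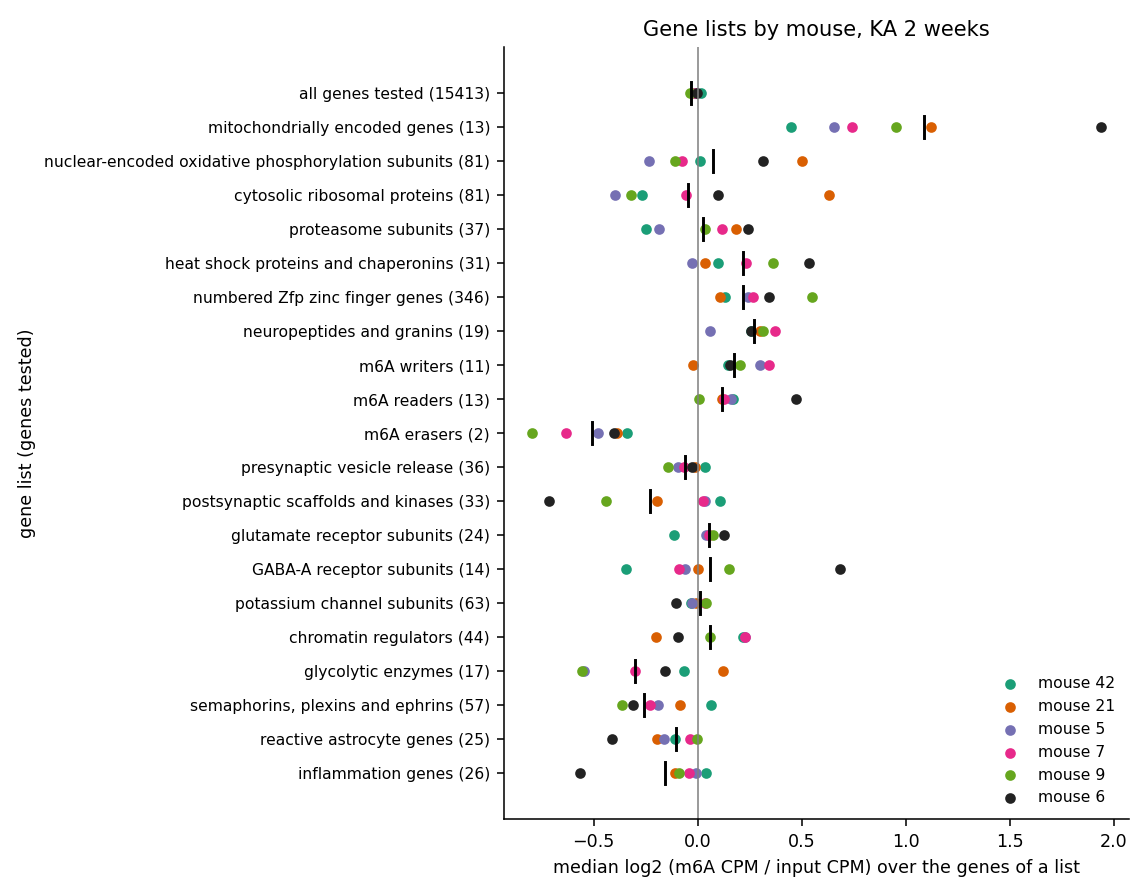
Each coloured point is the median log2 ratio of m6A to input over the genes of a list in 1 mouse, and the black mark is the median fitted log2 fold change over that list. Mitochondrially encoded genes lie to the right in every mouse (0.45 to 1.94), the 2 erasers lie to the left, and most neuronal lists scatter around 0.

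The calls among genes of synaptic signalling went in both directions. Of presynaptic genes 8.33% were higher and 5.56% lower, and of potassium channels 4.76% and 3.17%. Of sodium, calcium and HCN channels 2.70% were higher and 5.41% lower, against 5.55% and 3.14% of all genes. At these shares the calls are not read as a shift of the lists. Of 36 presynaptic release genes, 3 were higher (the active zone proteins Erc1, 0.51, Erc2, 0.53, and Pclo, 0.48) and 2 lower (the vesicle protein Syn2, -0.54, and the calcium sensor Syt7, -0.58). Of 33 postsynaptic scaffolds and kinases, Grip2 and Homer2 (-0.41) were lower and none was higher (median -0.23). Of 24 glutamate receptor subunits the kainate receptor subunit Grik3 (0.56) was the only one to pass, and none of 14 GABA-A receptor subunits did. Among 63 potassium channel subunits 3 were higher, such as Kcna4 (0.76), and 2 were lower. Of 37 sodium, calcium and HCN channel subunits, Cacna1f (0.95) was higher, and Scn2b (-0.51) and Cacna1c (-0.40) were lower. The granin Chgb was the only one of 19 neuropeptides and granins to pass: it measured 368, 474 and 893 CPM in the inputs and 478, 940 and 2456 CPM in the m6A libraries (0.84, adjusted P = 0.023), with all 6 ratios above 0. Of 39 immediate early genes, which neuronal activity induces, only Jund passed, and it was lower. None of 57 semaphorins, plexins and ephrins passed (median -0.26). With library-size scaling 8 of the neuropeptides and granins, 2 GABA-A subunits and 2 semaphorins, plexins or ephrins were higher. Without mouse 5, 7 or 9 no gene of the presynaptic, glutamate receptor, potassium channel or neuropeptide list passed.

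The lists of glial and inflammatory genes are short, so each share of calls rests on at most 2 genes. Of inflammation, reactive astrocyte and oligodendrocyte genes 7.69%, 8% and 20% were lower, against 3.14% of all genes. The shares higher were 0%, 4% and 10%, against 5.55%. Of 26 inflammation genes the complement gene C4b (-0.83, adjusted P = 0.025) and the transcription factor Stat3 (-0.49, adjusted P = 0.040) were lower and none was higher. Of 25 reactive astrocyte genes S100a10 (0.50) was higher, and S100a6 (-0.76) and Stat3 were lower. The astrocyte filament gene Gfap had ratios between -0.02 and -0.68 in 5 mice and -2.32 in mouse 6, and did not pass (-0.61, adjusted P = 0.17). Of 8 astrocyte markers the glutamate transporter Slc1a2 (-0.50) was lower. Of 8 inhibitory neuron markers the GABA-synthesizing enzyme Gad1 (-0.53) was lower, and of 8 excitatory neuron markers Neurod6 (0.74) was higher. Of 10 oligodendrocyte markers the myelin genes Cldn11 (-0.70) and Mog (-0.65) were lower and Ermn (0.62) was higher. No marker of microglia, endothelium, choroid plexus, blood or thalamus passed, although with library-size scaling 1 microglial and 2 choroid plexus markers were higher. The 84 transcription factors of the Sox, Fox, Pou, Lhx, Klf and Nr families had 3 higher and 1 lower, 44 chromatin regulators none higher and 1 lower, and 47 histone genes 4 higher and 2 lower. Of the reference transcripts, Actb (-0.26), Gapdh (-0.04) and Eef1a1 (-0.23) did not pass.

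By annotated class, 96 of 705 pseudogenes (13.6%) were higher and 23 (3.26%) lower at a median of 0.21, against 5.01% and 3.17% of 14058 protein-coding genes at a median of -0.04. Predicted genes with a numbered Gm symbol had 114 of 961 higher and 24 lower (median 0.21), and Riken cDNA genes 27 of 367 higher and 9 lower (0.07). Without mouse 5, 7 and 9 the higher genes numbered 36, 30 and 27 for the Gm symbols and 2, 2 and 1 for the Riken genes. Pseudogenes share sequence with their parent genes, so their reads are uncertain. Gm8430 was at 0 in all 6 inputs and had 241 to 862 counts in the m6A libraries, at least 256-fold higher when the inputs were set to 3 counts over the group. It was named after its values were seen.

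The ratio varied with the GC content of the transcript, and it did so differently in different mice. The 14058 protein-coding genes were placed in 5 equal groups by the GC content of their canonical transcript. The median log2 fold change was 0.16 in the lowest group (median GC 41.9%) and -0.27 in the highest (58.2%), with 303 higher and 16 lower genes in the former and 38 higher and 131 lower in the latter. Spearman's rho between GC content and the log2 ratio, over the same 14058 genes in every mouse, was 0.31 in mouse 42, 0.02 in mouse 21, -0.17 in mouse 5, -0.23 in mouse 7, -0.50 in mouse 9 and -0.66 in mouse 6. A smooth correction for GC content in each library gave 1228 higher and 1041 lower genes. The part of GC content in the calls was not tested further.

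**Figure D4:**
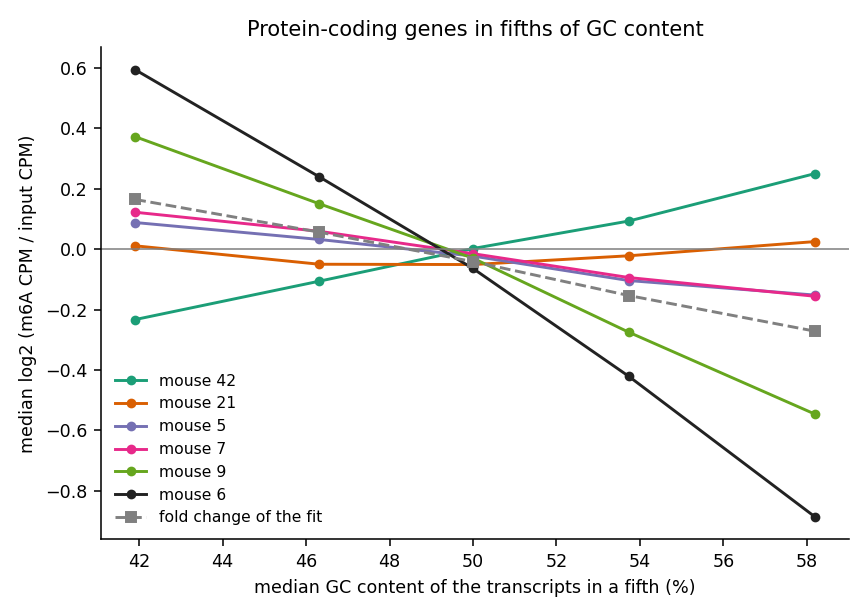
Median log2 ratio of m6A to input (vertical axis) of protein-coding genes in 5 equal groups by GC content (horizontal axis, median GC of the group in percent), 1 line per mouse, with the fitted fold change dashed. The line falls from 0.59 to -0.89 in mouse 6, is nearly flat in mouse 21 and rises from -0.23 to 0.25 in mouse 42.

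Genes with few exons were higher more often than genes with many, with 248 higher and 39 lower genes in the group of fewest exons (median 3) and 62 higher and 128 lower in the group of most (median 23). The median log2 fold change went from 0.09 to -0.11 between these groups, and rho was below 0 in all 6 mice, from -0.08 to -0.28. The motif GGACT, a form of the consensus in which m6A is placed, was searched on the sense strand of the canonical transcripts and occurred at least once in 94.1% of them. Its density per kilobase did not go with enrichment: the median log2 fold change was 0.02 in the group with the lowest density and -0.10 in the group with the highest (rho -0.11 over the fit). By mouse, rho for this density ran from 0.08 in mouse 42 to -0.18 in mouse 6. Whether it is separate from the trend with GC content was not tested. Transcript length had a rho of -0.03 over the fit. By mouse it was -0.27 in mouse 21, -0.10 in mouse 42 and 0.01 to 0.04 in mice 5, 7, 9 and 6.

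The PBS and 24-hour mice were set beside these values without a further claim, because the mice of each group are independent but all groups share the same assay. Of the 854 higher genes measured in the PBS mice as well, 92.3% had a mean ratio above 0 there, and of the 483 lower genes 95.2% had one below 0. Among uncalled genes 49.6% were above 0 in PBS mice. All 18 hosts of small structural RNAs were below 0 in each of the 3 PBS mice, and so were all 12 of the most depleted named genes. In the 24-hour IA-KA mice the mean was below 0 for 17 of the 18 hosts, but only 12 of them were below 0 in each of the 3 animals, and 1 was above 0 in each. Of the 12 most depleted named genes 11 were below 0 in each of these animals. At 24 hours 87.1% of the higher and 93.8% of the lower genes had the same sign, with 40.6% of the uncalled genes above 0. The 24-hour libraries differed from the 2-week ones. The m6A libraries of mice 67 and 98 held 1979606 and 1652933 counts, fewer than their inputs (5498360 and 3906903). In mouse 8 mitochondrially encoded genes took 17.4% of input counts, against 1.41% to 6.28% in the 2-week IA-KA inputs. The part of these differences in the 24-hour ratios was not tested.

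**Figure D5:**
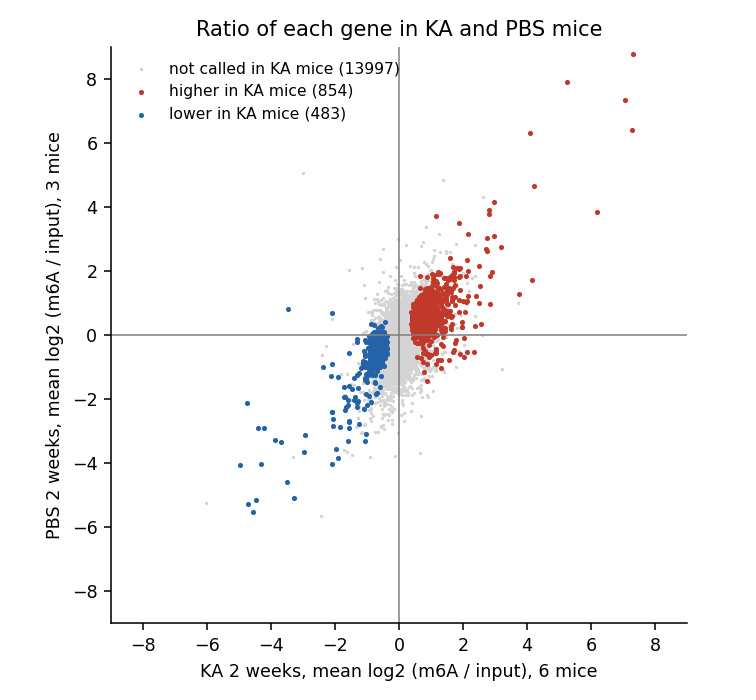
Mean log2 ratio of m6A to input in the 6 IA-KA mice (horizontal axis) and in the 3 PBS mice at 2 weeks (vertical axis), 1 point per gene, coloured by the call in the IA-KA mice. Red points lie mostly in the upper right and blue points in the lower left quadrant.

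Whether the ratio itself differed between IA-KA and PBS mice at 2 weeks was tested in 1 fit over both groups, with a term for treatment by assay. Of 15722 genes 1 passed (0.00636%), and 671 had an unadjusted P under 0.05. The 1 gene was Gm38356, whose m6A reads came from a single PBS mouse (1472 counts in mouse 4, none in any other m6A library of the test) and which was not called without that mouse. Tmem38b had a mean log2 ratio of -4.57 in IA-KA and -5.51 in PBS mice (adjusted P = 0.93 for the difference, difference in the fit 0.69, SE 1.40). Snrpd1 stood at 1.89 and 2.07 (adjusted P = 0.91) and Alkbh5 at -0.58 and -0.80 (adjusted P = 0.88). The mitochondrially encoded genes had a median of 1.09 in IA-KA and 0.19 in PBS mice, and no member passed the test of the difference. Igf2bp3 stood at -1.01 in IA-KA and -2.17 in PBS mice, with a difference of 1.16 (SE 0.35) that did not pass (adjusted P = 0.87). A result that misses the threshold does not show that the groups are alike, and with 3 PBS mice the errors are wide.

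Between 2 weeks and 24 hours after kainic acid, 3 of 16266 genes passed (0.0184%) and 597 had an unadjusted P under 0.05. Gm8430 (adjusted P = 0.017) and Gm7416 (0.023) had a higher ratio at 2 weeks and Gm10222 (0.044) a lower one. Gm10222 was at 0 in all 6 m6A libraries at 2 weeks and had 5 to 1191 counts in the inputs. In the 24-hour group mouse 8 held most reads of these genes, with 20880 input and 21435 m6A counts of Gm10222, and none of the 3 passed without it. Gm10222 resembles mitochondrial sequence, so its counts are uncertain. Snrpd1 had a mean ratio of 1.02 at 24 hours against 1.89 at 2 weeks, and Slc17a8 0.23 against 1.62, and neither difference passed (adjusted P = 0.94 for both). The mitochondrially encoded genes had a median of -0.14 at 24 hours and 1.09 at 2 weeks, again with no member past the test.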

How the data were processed

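Hippocampal total RNA (input) and m6A-immunoprecipitated poly(A) RNA were sequenced with a stranded total RNA kit. For each library the authors deposited 4 lane columns of raw counts, 1 row per gene symbol (32544 genes). The submitters' processing notes name the build mm10. The aligner, the counting program and its strand setting were not given in the sources used here. Lanes were summed to 35 libraries, and 8 columns that match no sample label were not used.

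The comparison was fitted on 12 libraries with edgeR 4.0.16 in R 4.3.3, using filterByExpr by assay, TMM scaling, a robust quasi-likelihood fit with mouse as block, Benjamini-Hochberg adjustment over all genes and a threshold of 0.05. The SE is the absolute log2 fold change over the root of F. Log2 ratios per mouse used a prior count of 2. Interactions with the PBS and 24-hour groups used mice with inputs of at least 100000 counts. P-values measure the spread between mice. Mouse numbers pair the libraries by animal. The deviations of input and m6A library of a mouse correlated with r from 0.14 to 0.54. In 5 of the 6 mice the input correlated best with its own m6A library, and the m6A library with its own input. Mouse 6 was the exception both ways. Its m6A library had r = 0.39 with the input of mouse 7 and 0.157 with its own. Its input had r = 0.161 with the m6A library of mouse 5.

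Named genes were the 12 highest and 12 lowest called genes with 1 sign in all 6 mice and a mean of at least 10 CPM (Gm, Riken and pseudogene symbols left out), the 3 most abundant members of each list, all m6A writers, erasers and readers, the study's PCR transcripts, reference genes, and up to 5 genes per interaction and direction. Other called list members are examples. The members of the comparison and the 41 gene lists, 38 of them with tested members, were chosen with earlier results of these data known. Of the brain long noncoding RNA list only Snhg11 was in the tables (log2 fold change 0.04). Features came from GENCODE M39 on GRCm39 by symbol, with 14896 of 15413 genes matched, and gene positions from RefSeq on GRCm38.p6. The fits were tested on simulated data with 200 changed genes. The simulated mice shared the same mean for each gene, so this test cannot show how the fits handle mice that differ. Alternatives were DESeq2 1.42.0, voom in limma 3.58.1, other scalings, filters and thresholds, subsets of mice and, chosen after seeing the data, a GC correction and the split by column naming. Tables and plots used Python 3.11.15, pandas 2.3.3, numpy 2.4.6 and matplotlib 3.10.9. Some results are not reported here.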

Additional observations from a re-analysis of the deposited data

Results flagged for a closer look

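For 14 of 169 genes, 3 of 39 gene lists and 1 of 8 library measures, 1 mouse lay farther from the other 5 than a Dixon test at the 95% level allows. Chance flags about 1 in 20 groups. Most of these involved mouse 6. Its log2 ratio of m6A to input lay above those of the other mice for Igf2bp2, an m6A reader (3.007), mt-Atp6 (3.146), the respiratory chain subunit Cox6c (2.294), Rpl26 (1.766), the endothelial gene Pecam1 (1.1), Cbll1, of the writer complex (0.934), the NMDA receptor subunit Grin2b (0.548) and the potassium channel Kcna2 (0.541). It lay below them for Lars2 (-4.413), the dendritic protein gene Ddn (-2.443) and Gfap (-2.32). The median ratio of mouse 6 stood apart for the m6A readers (0.471) and the inflammation genes (-0.5645), and its m6A library detected 27003 genes. Mouse 21 lay below the others for Hsp90ab1 (-0.201) and the active zone gene Pclo (-0.028), mouse 9 above them for Snrpd1 (2.457), and mouse 42 below them for the median of the glutamate receptor subunits (-0.115).

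The ratio of m6A to input differed between IA-KA and PBS mice for Gm38356 (adjusted P = 0.0325), and between 2 weeks and 24 hours after kainic acid for Gm8430 (adjusted P = 0.0173), Gm7416 (adjusted P = 0.0234) and Gm10222 (adjusted P = 0.0441). These are adjusted P-values of edgeR's test of the difference itself. The first rests on PBS mouse 4, without which no gene passed, and the others on mouse 8 of the 24-hour group.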

How the results depend on the processing

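The number of genes that differed between m6A and input (1339 in the main fit) depended on the method. It was 407 without the mouse as a replicate block, that is without the pairing by mouse. It was 2540 with library-size scaling, 2191 with DESeq2, 4773 with voom and sample weights, 2269 with a GC correction and the block, 357 with an absolute log2 fold change above 1 as well, 126 at an adjusted P under 0.01 and 11 when tested against a fold of 2. It was 4 in mice with m6A prefix 3, 122 in those with prefix 5, 717 in mice whose input columns name the assay and 353 in the others, all with fewer animals. Leaving out 1 mouse gave 117 to 2145. The test against PBS mice gave 0 genes without the block, 0 with upper-quartile scaling, 3 with DESeq2, 0 with voom and 0 to 2 without 1 mouse (none without mouse 9, mouse 6 or PBS mouse 4). The test against 24 hours gave 0 genes without the block, 11 with DESeq2, 14 with voom, 5 with no filter and 0 to 4 without 1 mouse (1 without mouse 9, none without mouse 8). The cause was not tested in any of these.

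Library-size scaling moved the median log2 fold change of 16 of 38 gene lists by more than 1 SD of the mice, and upper-quartile scaling of none. The medians became 0.41 for Zfp genes, 0.14 for Sox and related factors, 0.20 for potassium channels, 0.11 for sodium, calcium and HCN channels, 0.25 for glutamate receptors, 0.26 for Riken genes, 0.14 for presynaptic genes, 0.36 for writers, -0.31 for erasers, 0.31 for readers, 0.26 for chromatin regulators, 0.45 for neuropeptides, 0.089 for reactive astrocyte genes, -0.058 for semaphorins, 0.0138 for excitatory and 0.0585 for endothelial markers. None of the 56 named called genes changed direction under any alternative, but 34, 36 and 37 of them no longer passed without mouse 5, 7 and 9. The 56 were selected as called in these same mice, so their kept direction is no separate support. The inputs were shallower than the m6A libraries, and 1195 genes passed with the m6A libraries thinned to the input depth.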

Other observations

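Genes with no count in any of the 6 inputs and at least 10 counts in every m6A library numbered 2, Gm8430 and Gm9833, and no gene showed the reverse. The median GC content of the canonical transcript was 45.6% for genes higher in the m6A libraries, 53.6% for genes lower in them and 49.9% for the others, with medians of 5, 11 and 8 exons. These are descriptions over genes, which are not independent of each other.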
